A study of Mus musculus with 10 samples.

Results

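Replication-dependent histone genes encode most of the protein around which DNA is wrapped. They were taken here as the genes whose platform annotation gave a single symbol starting with Hist1h, Hist2h, Hist3h or Hist4h. With the brightest probe set kept for each gene, 28 genes of 29766 tested met this rule. By class they were 5 genes of the linker histone H1, 9 of H2A, 9 of H2B, 3 of H3 and 2 of H4. A further 35 probe sets were annotated with several symbols, all of them histones, and are described separately, because they cannot be given to 1 gene. Another 2 that name histones beside other genes were not used.

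The tissue is labelled as cochlea, taken from CBA/CaJ mice aged 6 months, and each sample was hybridised to its own expression microarray. All mice had normal hearing and lived alone in their cage. In the group of 5 runners (titles RW) the cage held a running wheel, and in the group of 5 controls it did not. No transgene, deletion or drug is named for either group. The labels do not say that each sample came from its own animal, and the spread behind the p-values may therefore be technical. The series asks how long-term voluntary running bears on hearing loss with age in this strain, which loses hearing late in life, and these arrays set young mice with a wheel against young mice without one.

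Histones H2A, H2B, H3 and H4 form the core of the nucleosome, and H1 binds the DNA between cores. The replication-dependent genes are transcribed in S phase, when new DNA must be packed. Their messenger RNAs end in a stem-loop, bound by the protein Slbp, in place of a poly(A) tail, and they are degraded when replication stops. Their summed level is therefore widely used as a mark of dividing cells. Adult hair cells and neurons of the cochlea do not divide, whereas marrow in the surrounding bone holds dividing blood precursors.

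The genes lie in clusters, 22 of the 28 in Hist1, 5 in Hist2 and 1, the pseudogene Hist3h2bb-ps, in Hist3. Many H2B promoters carry the octamer ATTTGCAT, which is bound by the transcription factor Oct-1. It is shown because the member with the smallest p, Hist1h2bb, is an H2B gene. RefSeq promoters (GRCm38.p6) were matched by gene identifier for 24 of the 28 genes, and the 250 bases before the transcription start were searched on both strands. The octamer was present in 5 of 7 H2B promoters (71.4%), in 2 of 8 H2A promoters and in 0 of the 9 promoters of H1, H3 and H4, against 1.6% of all 32851 promoters. The 5 windows of 64 bases are given 5′ to 3′ on the gene's strand, with the octamer in capitals.
Hist1h2bb, chr13:23746604-23746667, plus strand: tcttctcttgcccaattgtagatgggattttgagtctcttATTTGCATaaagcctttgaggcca
Hist1h2ba, chr13:23934297-23934360, minus strand: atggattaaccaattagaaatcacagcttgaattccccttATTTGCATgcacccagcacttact
Hist1h2bk, chr13:22035751-22035814, plus strand: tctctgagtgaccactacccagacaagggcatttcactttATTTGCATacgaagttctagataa
Hist1h2bm, chr13:21721979-21722042, plus strand: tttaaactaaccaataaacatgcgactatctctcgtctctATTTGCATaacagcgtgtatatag
Hist2h2bb, chr3:96269612-96269675, plus strand: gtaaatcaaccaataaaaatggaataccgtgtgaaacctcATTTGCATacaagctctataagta

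All 5 H2B octamers read ATTTGCAT in the direction of the gene. The octamers of the H2A genes Hist1h2aa and Hist1h2ah read ATGCAAAT, the same letters on the other strand, because each of these genes lies head to head with an H2B gene, Hist1h2ba and Hist1h2bk, and shares its promoter. The CCAAT box, searched as CCAAT on both strands, was present in 23 of the 24 promoters (95.8%), against 33.8% of all promoters. A TATA box, searched as TATAAA on the gene's strand, was present in 7 of 24 (29.2%) against 7.59%. A match is a description of these letters and says nothing of binding in these samples.

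Most histone genes had lower log2 levels in runners, by small amounts. Of the 28 genes, 25 had a difference below 0, where 49.5% of all genes did, and 3 a difference above 0. The median difference, runner minus control, was -0.14 on the log2 scale, against 0.0009 over all genes. No member passed the test across all genes (limma adjusted p under 0.05), which 0.00672% of all genes did. At an unadjusted p under 0.05, 4 members were lower in runners (all genes 3.92%) and 0 higher (all genes 3.21%). These were Hist1h2bb, Hist1h2ba, Hist1h2aa and Hist1h2af, and the groups did not overlap for 1 of them, Hist1h2bb (all genes, lower in runners, 0.548%). Of the 21 members with a mean of at least 5, 18 were lower, where 53.9% of all such genes were. At that p 4 of the 21 were lower, where 5.38% of such genes were. In whole tissue, fewer dividing cells and less histone RNA per cell cannot be told apart, and no cause was tested. Medians of the cell type lists described below ran from -0.45 (B lineage) to 0.047 (T cell). Hair cell genes were at -0.13 and supporting cell genes at -0.19, so a median of this size was not particular to histone genes.

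The count of 4 depended on single arrays. It was 14 without runner 1, where 8.59% of all genes were lower at that p, and 7 without control 1, where 4.54% were. It was 1 without runner 2 (3.46% of all genes), runner 3 (2.86%), runner 5 (3.58%), control 2 (2.57%) or control 5 (3.03%). It was 2 without runner 4 (2.72%), control 3 (3.69%) or control 4 (3.5%). Without runner 1, 1 member passed the adjusted threshold, Hist1h2bb, where 0.333% of all genes passed. Its unadjusted p in limma was not smaller there, at 7.12e-05 against 3.27e-05 with all arrays.

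**Figure D1:**
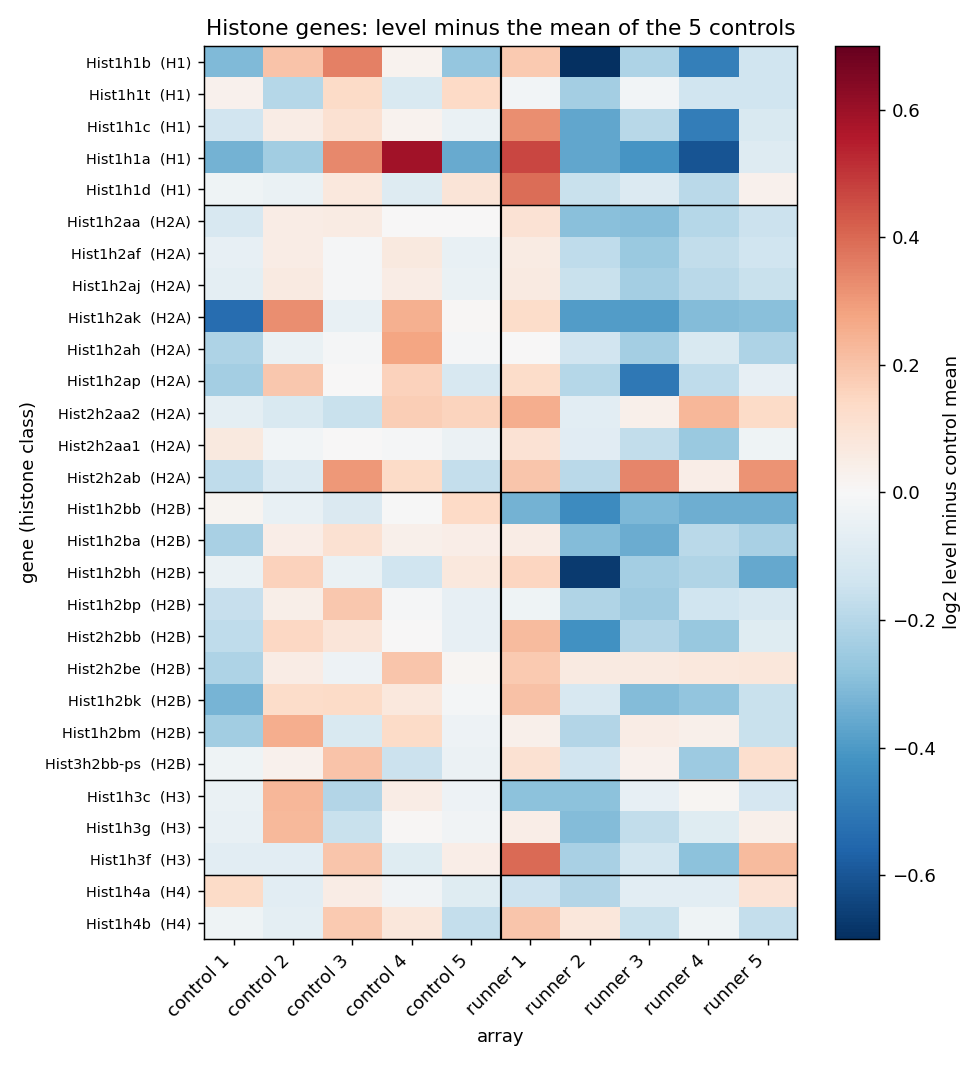
Level of each of the 28 histone genes on each array, as the log2 level minus the mean of the 5 controls, with genes grouped by histone class and a vertical line between controls and runners. Runners 2 to 5 are mostly blue (below the control mean), while runner 1 is mostly red, being the highest runner for 22 of 28 genes.

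Hist1h2bb, a gene of the core histone H2B, had the smallest p of the histone genes and the fifth smallest of all genes. Its log2 level was 6.34, 6.27, 6.22, 6.32 and 6.46 in controls 1 to 5 and 5.99, 5.88, 6.01, 5.98 and 5.98 in runners 1 to 5. Every runner lay below every control, runner 1 among them, and the runners spanned less than the controls. The control mean was 6.32 ± 0.087 (SD, n = 5), and the runner mean was 5.97 ± 0.049 (SD, n = 5). The difference was -0.35 ± 0.056 (SE), or 21.8% lower on the linear scale, without passing across all genes (limma adjusted p = 0.141). The exact two-sided permutation test over all assignments of the arrays gave p = 0.00794, the smallest that 5 against 5 can give. Every gene whose groups do not overlap has this p (all genes, lower 0.548%, higher 0.38%), so it adds nothing to the separation above. Over its alternatives the limma adjusted p ran from 0.0383 to 0.559. It was 0.0480 without runner 1 and 0.0383 without runner 1 and control 1. The unadjusted limma p rose instead, from 3.27e-05 with all arrays to 7.12e-05 and 0.000255. The adjusted p fell because more of all genes had a small p there, with 0.333% and 1.43% passing against 0.00672%.

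Hist1h2ba and Hist1h2aa, known for the H2B and H2A of the testis, are the head-to-head pair whose promoter is printed above. Their means were 7.76 and 7.33. Whether their probe sets read these genes or similar histone copies was not tested. Hist1h2ba was at 7.64, 7.91, 7.97, 7.90 and 7.91 in controls 1 to 5 and at 7.92, 7.56, 7.52, 7.68 and 7.64 in runners 1 to 5. Runner 1 lay among the upper controls and control 1 among the runners, and apart from these arrays the groups were separate. The difference was -0.20 ± 0.084 (SE; limma adjusted p = 0.655). It was -0.27 without runner 1 (limma adjusted p = 0.111). Without runner 1 and control 1 it was -0.32 (limma adjusted p = 0.0381), but these arrays, the highest runner and the lowest control here, were left out after their values were seen, which widens the difference by construction.

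Hist1h2aa was at 7.30, 7.46, 7.47, 7.41 and 7.41 in controls 1 to 5 and at 7.51, 7.12, 7.11, 7.21 and 7.26 in runners 1 to 5. Runner 1 was the highest of all 10 arrays, while runners 2 to 5 lay below every control. The difference was -0.17 ± 0.076 (SE; limma adjusted p = 0.679).

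**Figure D2:**
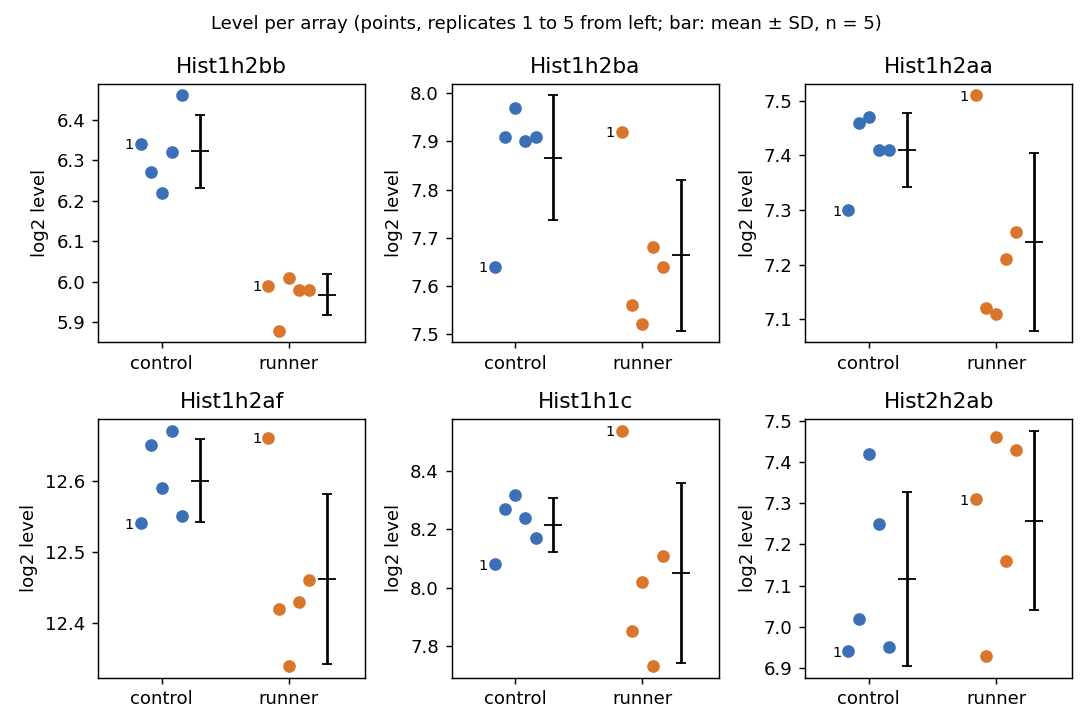
Log2 level per array (y axis) of 6 histone genes in controls and runners (x axis), with points for replicates 1 to 5 from left to right, replicate 1 marked, and bars for the mean ± SD (n = 5). For Hist1h2bb all runners lie below all controls, for the next 4 genes runner 1 lies at or above the control mean, and for Hist2h2ab the runner mean is the higher one.

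Among the other H2B genes the differences were smaller against their spread. Hist1h2bh was at 5.74, 5.95, 5.74, 5.65 and 5.86 in controls and at 5.94, 5.12, 5.55, 5.58 and 5.43 in runners. Here too runner 1 alone reached the controls, and runner 2 was the lowest (difference -0.26 ± 0.12 SE, limma adjusted p = 0.698). Hist1h2bp was at 5.35, 5.55, 5.70, 5.50 and 5.45 in controls and at 5.48, 5.30, 5.26, 5.37 and 5.40 in runners (-0.14 ± 0.071 SE, limma adjusted p = 0.704). Runner 1 lay above 2 controls, and runners 4 and 5 lay above control 1 alone.

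Hist2h2bb, from the Hist2 cluster, was at 8.06, 8.38, 8.32, 8.24 and 8.18 in controls and at 8.46, 7.81, 8.03, 7.97 and 8.15 in runners. Runner 1 was the highest of all arrays and the difference was -0.15 ± 0.11 (SE; limma adjusted p = 0.783). Over the 9 genes of the class, 8 were lower (all genes 49.5%), 2 of them at an unadjusted p under 0.05 (all genes, lower, 3.92%), with a median difference of -0.14 and a range from -0.35 to 0.092. The 5 H2B genes with the octamer had a median of -0.15 and the 2 without it, Hist1h2bh and Hist1h2bp, one of -0.20. The member above 0 was Hist2h2be (0.092 ± 0.071 SE).

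Most H2A genes had lower levels, with groups that overlapped for all 9. Hist1h2af was at 12.54, 12.65, 12.59, 12.67 and 12.55 in controls and at 12.66, 12.42, 12.34, 12.43 and 12.46 in runners, a difference of -0.14 ± 0.064 (SE; limma adjusted p = 0.698). Its neighbour by class, Hist1h2aj, was at 12.69, 12.82, 12.75, 12.81 and 12.71 in controls and at 12.82, 12.60, 12.52, 12.57 and 12.60 in runners (-0.13 ± 0.063 SE, limma adjusted p = 0.704). In both, runners 2 to 5 lay below every control and runner 1 at the top of the control range. Many core histone genes of 1 class are near-identical copies, and identity between these 2 was not computed. A shared probe set naming 10 other H2A genes (mean 12.51) differed by -0.14 ± 0.064 (SE) too. It is therefore uncertain whether these probe sets report separate transcripts, and the counts of members may hold 1 signal more than once.

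All 6 Hist1 genes of H2A were lower, whereas 2 of the 3 Hist2 genes were higher. Hist2h2ab was at 6.94, 7.02, 7.42, 7.25 and 6.95 in controls and at 7.31, 6.93, 7.46, 7.16 and 7.43 in runners, a difference of 0.14 ± 0.12 (SE; limma adjusted p = 0.817). Hist2h2aa2 was at 4.93, 4.89, 4.84, 5.17 and 5.15 in controls and at 5.25, 4.92, 5.03, 5.23 and 5.13 in runners (0.12 ± 0.085 SE, limma adjusted p = 0.784). For Hist2h2ab the groups overlapped over nearly their whole range. For Hist2h2aa2 they overlapped in part, with 2 controls below every runner and 2 runners above every control. Hist2h2aa1, annotated beside Hist2h2aa2, had a difference of -0.088 ± 0.067 (SE), opposite in sign to its neighbour. Both probe sets were dim (means of 4.96 and 5.05). A brighter shared probe set naming both genes (mean 9.14) differed by -0.045 ± 0.069 (SE). Another, naming both and Hist1h2al (mean 9.02), differed by -0.033 ± 0.071 (SE), so a rise of Hist2h2aa2 was not seen there. The class had a median difference of -0.14, with 7 of 9 genes lower (all genes 49.5%) and 2 at an unadjusted p under 0.05 (all genes, lower, 3.92%). With arrays centred on their medians 0 of the 9 had such a p in limma.

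Across classes, all 22 genes of the Hist1 cluster were lower (median -0.14, range -0.35 to -0.0006), and of the 5 of the Hist2 cluster 2 were lower and 3 higher (median 0.092). The difference between the clusters was not tested. Of the Hist1 genes, Hist1h3f and Hist1h4b turned above 0 under repeated quantile normalization, and these and Hist1h1d did so under centring of arrays on their medians. With 1 array left out, between 1 and 3 Hist1 genes turned above 0 in 8 of the 10 cases, all but those without runner 1 and without control 1. These were the same 3 genes and, without control 2, Hist1h2bm. Centring left 22 of the 28 histone genes lower (all genes 38.6%), 2 of them at an unadjusted p under 0.05 (all genes, lower, 2.83%).

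H3 and H4 had few genes that could be told apart by symbol. Hist1h3c was at 4.81, 5.09, 4.65, 4.91 and 4.82 in controls and at 4.57, 4.57, 4.80, 4.87 and 4.74 in runners, a difference of -0.15 ± 0.086 (SE; limma adjusted p = 0.748). Runners 1 and 2 were the lowest arrays, and runners 3 to 5 lay within the controls. Hist1h3g differed by -0.097 ± 0.085 (SE) and Hist1h3f by -0.0006 ± 0.12 (SE). The median of the 3 H3 genes was -0.097, with -0.041 without control 2 and -0.044 without runner 2.

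Hist1h4a was at 5.80, 5.59, 5.72, 5.64 and 5.58 in controls and at 5.52, 5.46, 5.59, 5.59 and 5.76 in runners (-0.086 ± 0.068 SE, limma adjusted p = 0.811). The groups overlapped, with runner 5 among the upper controls. Hist1h4b differed by -0.015 ± 0.086 (SE). A second, dimmer probe set of Hist1h4b, with a mean of 2.55, differed by 0.080 ± 0.066 (SE).

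The 5 linker histones had differences below 0 and varied widely among arrays. That of Hist1h1d was near 0 (-0.0023 ± 0.099 SE), and that of Hist1h1a was smaller than its error (-0.20 ± 0.22 SE). Hist1h1b was at 6.74, 7.25, 7.40, 7.07 and 6.78 in controls and at 7.23, 6.32, 6.83, 6.57 and 6.91 in runners, a difference of -0.28 ± 0.17 (SE; limma adjusted p = 0.760). Controls 1 and 5 lay with the runners and runner 1 with the controls. Hist1h1c, which is expressed in resting as well as dividing cells, was at 8.08, 8.27, 8.32, 8.24 and 8.17 in controls and at 8.54, 7.85, 8.02, 7.73 and 8.11 in runners. Runner 1 was the highest of all arrays, and the difference was -0.17 ± 0.12 (SE; limma adjusted p = 0.791), or -0.29 without runner 1.

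Hist1h1t, the linker histone of the testis, differed by -0.11 ± 0.076 (SE), with a mean of 3.50 ± 0.15 (SD, n = 5) in controls. Of the 5 H1 genes 0 had an unadjusted p under 0.05 in limma and 0 passed, and their median difference was -0.17. It was -0.29 without runner 1, where 2 of the 5 had such a p (all genes, lower, 8.59%), and -0.10 without runner 4. The 11 histone genes outside the rule for naming had differences from -0.25 to 0.092, with adjusted p of 0.757 and above in limma.

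**Figure D3:**
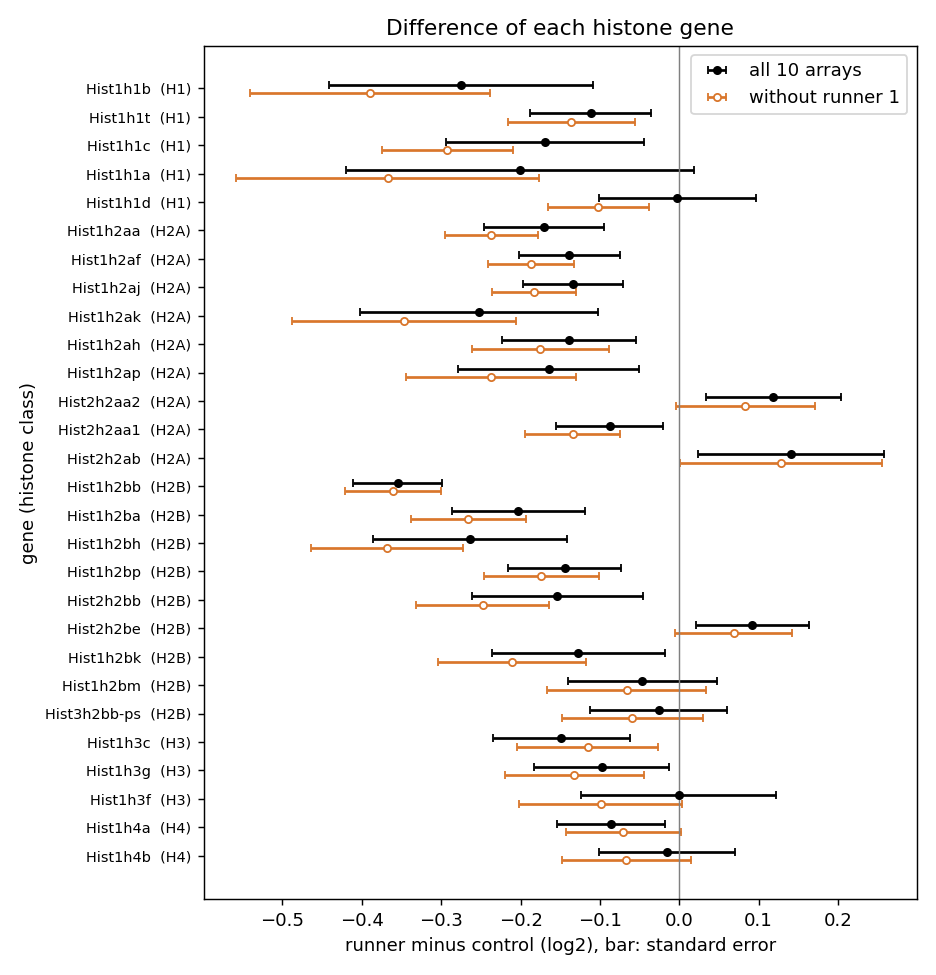
Difference of each histone gene, runner minus control on the log2 scale (x axis), with its standard error, for all 10 arrays (filled) and without runner 1 (open), grouped by class. Of the 28 filled points 25 lie below 0, and Hist1h2bb is the point farthest below 0 relative to its error.

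Runner 1 lay apart from the other runners, and control 1 from the other controls, in many of these genes. Runner 1 was the highest of the runners for 22 of the 28 genes, where this held for 33.9% of all genes. Control 1 was the lowest of the controls for 15, where it was so for 19.2% of all genes. The mean over the 28 genes was 6.38, 6.56, 6.57, 6.57 and 6.48 in controls 1 to 5 and 6.63, 6.27, 6.34, 6.33 and 6.43 in runners 1 to 5. Runner 1 thus exceeded the average of runners 2 to 5 by 0.28, and control 1 -0.16 from that of the other controls.

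Without runner 1 the median difference of the 28 genes was -0.17 and 5 genes had groups that did not overlap (all genes, lower, 3.33%). Without runner 1 and control 1, an alternative chosen with the values known that widens the difference by construction wherever they were the highest runner and the lowest control, the median was -0.20, 15 genes had an unadjusted p under 0.05, lower in runners (all genes 9.07%), and 12 had groups that did not overlap (all genes, lower, 5.98%). Of the 28, 3 passed (limma adjusted p under 0.05; 1.43% of all genes passed there), Hist1h2ba, Hist1h2bb and the H2A gene Hist1h2ak, the last at an adjusted p of 0.0383 in limma with a difference of -0.48. Of these 3, Hist1h2bb hardly moved, at -0.36 in both alternatives. Other members moved little too, such as Hist1h1t, at -0.11 with all arrays and at -0.14 and -0.13 in these alternatives.

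The probe sets annotated with several symbols, all histones, had lower levels too. Of 35, 30 had a difference below 0 (49.6% of all rows in that fit), 5 had lower levels with an unadjusted p under 0.05 (3.94%), and 0 passed in limma (smallest adjusted p = 0.606; 0.00671% of all rows passed). By class 7 of 9 H2A, 8 of 9 H2B, 6 of 6 H3 and 8 of 10 H4 probe sets were lower, with medians of -0.045, -0.10, -0.10 and -0.081, and a probe set naming both H2A and H3 genes was at -0.0054. The largest difference was in an H4 probe set naming 13 genes, at 6.86, 7.23, 7.32, 7.26 and 6.88 in controls and 7.01, 6.47, 6.66, 6.62 and 6.96 in runners (-0.37 ± 0.12 SE). Runner 1 was the highest runner in 32 of the 35 probe sets and control 1 the lowest control in 22. These probe sets overlap in what they name, so they are not independent of each other or of the 28 genes.

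Genes of DNA replication and mitosis had lower levels in runners too, and their means were also highest among runners in runner 1 and lowest among controls in control 1. Each of 26 measured genes of DNA replication was lower in runners (all genes 49.5%), with a median of -0.18. In limma 11 had an unadjusted p under 0.05 (all genes, lower, 3.92%) and 0 passed (all genes 0.00672%). Mcm2, a subunit of the replicative helicase, was at 7.78, 8.03, 8.03, 8.05 and 7.90 in controls and at 7.86, 7.67, 7.60, 7.73 and 7.74 in runners (-0.24 ± 0.070 SE, limma adjusted p = 0.583). Runners 2 to 5 lay below every control. The DNA ligase gene Lig1 differed by -0.21 ± 0.062 (SE) and the kinase gene Cdk2 by -0.23 ± 0.071 (SE).

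The 12 measured mitosis genes were all lower (all genes 49.5%), 4 at an unadjusted p under 0.05 (all genes, lower, 3.92%). In limma 0 passed, and the median of the 12 was -0.23. They were led by the cyclin Ccnb2 (-0.31 ± 0.10 SE), the kinase gene Aurkb (-0.22 ± 0.086) and the motor gene Kif11 (-0.33 ± 0.14). Runner 1 lay 0.23 above the other runners in the mean of the replication list and 0.40 in that of the mitosis list, and control 1 lay -0.20 and -0.30 from the other controls.

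Genes that make, process and place histones gave smaller values. Of 12 measured genes of histone RNA synthesis and processing, 7 were lower (all genes 49.5%) and 5 higher. In limma 0 had an unadjusted p under 0.05 (all genes, lower, 3.92%), and the median was -0.011. Slbp, the stem-loop binding protein, was at 5.85, 6.04, 6.10, 6.02 and 6.07 in controls and at 6.13, 5.77, 5.87, 5.89 and 5.90 in runners (-0.11 ± 0.073 SE, limma adjusted p = 0.779). Runner 1 was its highest array. Lsm11, a subunit of the U7 particle that cuts histone transcripts, differed by 0.16 ± 0.089 (SE), and the exonuclease gene Eri1 by -0.10 ± 0.068 (SE).

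Of 15 histone chaperones 12 were lower (all genes 49.5%), with a median of -0.020, and 1 had an unadjusted p under 0.05 (all genes, lower, 3.92%). That gene was Chaf1a, a subunit of the complex that places new histones at the replication fork (-0.19 ± 0.073 SE, limma adjusted p = 0.619). The chaperone genes Asf1b and Nasp differed by -0.17 ± 0.11 and -0.11 ± 0.069 (SE). All 10 measured genes of histone variants outside the replication-dependent set were lower (all genes 49.5%), with a median of -0.11. Of these, 3 had an unadjusted p under 0.05 (all genes, lower, 3.92%). They were the centromere histone Cenpa (-0.21 ± 0.071 SE), the oocyte linker histone H1foo (-0.15 ± 0.057) and H2afx, which is phosphorylated at DNA breaks (-0.24 ± 0.10).

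In the B lineage, erythroid, neutrophil and T cell lists, as in the histone genes, runner 1 had the highest mean of the runners. Control 1 had the lowest mean of the controls in each, and both held for the histone chaperones too. The order of runners 2 to 5 differed between these lists and the histone genes, and the part of these markers in the result was not tested. Each of 10 measured B lineage genes was lower (all genes 49.5%), 9 with an unadjusted p under 0.05 (all genes, lower, 3.92%). In limma 0 passed, and the median of the 10 was -0.45. Their mean ran from 5.87 to 6.29 in controls and from 5.40 to 5.90 in runners. Cd79b, which encodes a signalling chain of the B cell receptor, differed by -0.66 ± 0.11 (SE; limma adjusted p = 0.141), with Fcrla at -0.71 ± 0.11 and the kinase gene Blk at -0.42 ± 0.073. The 8 erythroid genes were all lower (all genes 49.5%), 3 at an unadjusted p under 0.05 (all genes, lower, 3.92%). The median of the 8 was -0.23, and their mean ran from 8.19 to 8.65 in controls and from 8.0 to 8.53 in runners. They were led by the transferrin receptor gene Tfrc (-0.27 ± 0.098 SE) and by Car1 (-0.31 ± 0.12), and Alas2, a gene of heme synthesis, had a mean of 9.80 in controls.

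Each of 10 neutrophil lineage genes was lower (all genes 49.5%), with list means from 8.75 to 9.14 in controls and from 8.68 to 9.17 in runners. The median of the 10 was -0.16, and 2 had an unadjusted p under 0.05 (all genes, lower, 3.92%). Those 2 were Ly6g (-0.39 ± 0.12 SE) and Prtn3 (-0.24 ± 0.087), with Ctsg next (-0.22 ± 0.11). In the list means, runner 1 exceeded runners 2 to 5 by 0.35 for B lineage, 0.38 for erythroid and 0.46 for neutrophil genes, against 0.28 for the histone genes. Control 1 lay -0.26, -0.33 and -0.27 from the other controls in these 3 lists. T cell genes were higher in 4 of 5 (15024 of all 29766 genes were), 1 of them, Cd8a, at an unadjusted p under 0.05 (all genes, higher, 3.21%). Cd3g differed by 0.095 ± 0.069 and Cd4 by -0.067 ± 0.14 (SE). The T cell list had a median difference of 0.047 and a mean level of 4.72 to 4.84 in controls and 4.70 to 5.06 in runners. In its mean, runner 1 lay 0.27 above the other runners and control 1 lay -0.080 from the other controls.

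**Figure D4:**
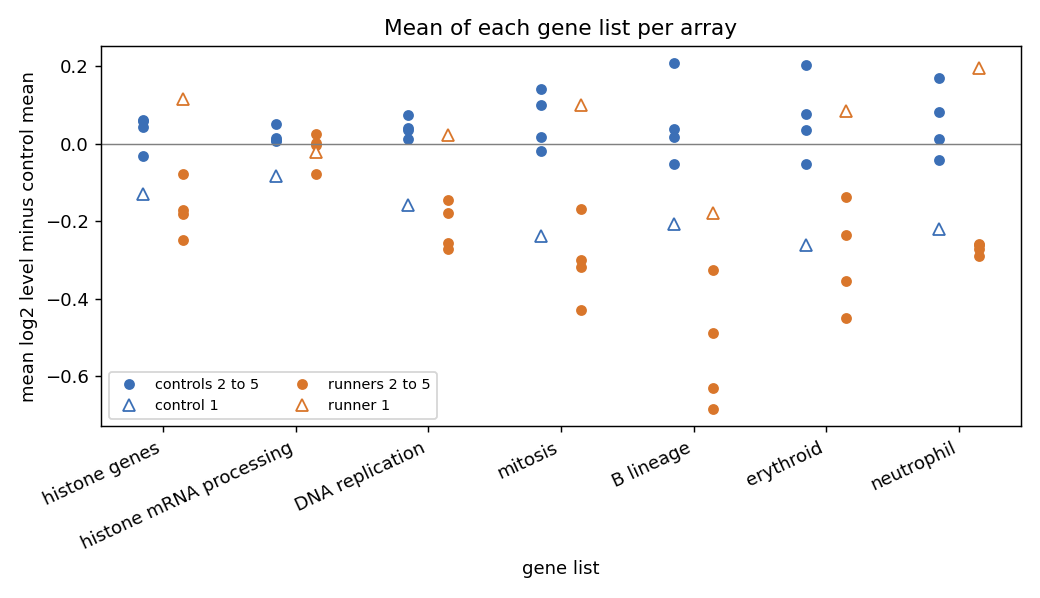
Mean log2 level of 7 gene lists per array, minus the mean of the 5 controls (y axis), with circles for replicates 2 to 5 and open triangles for replicate 1 of each group. In the histone, DNA replication, mitosis, B lineage, erythroid and neutrophil lists the runner 1 triangle lies above the control 1 triangle and above the other runners, and the histone mRNA processing list spans the least.

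Markers of the cochlea were read as well, but with no other tissue for comparison their levels do not test the label. The mean of 10 hair cell genes ran from 5.27 to 5.40 in controls and from 5.03 to 5.41 in runners. Array medians over all genes lay between 5.35 and 5.43. Ocm, the hair cell gene of oncomodulin, had a mean of 6.19 in controls and differed by -0.32 ± 0.12 (SE). Slc26a5, the motor protein gene of outer hair cells, differed by -0.21 ± 0.090 (SE) and Loxhd1 by -0.12 ± 0.053 (SE). Each of 10 hair cell genes was lower (all genes 49.5%), 3 with an unadjusted p under 0.05 (all genes, lower, 3.92%). Their median was -0.13, against -0.14 for the histone genes. Of 9 supporting cell genes 7 were lower, 4 at that p, with a median of -0.19. Epyc was at -0.52 ± 0.15, Otogl at -0.41 ± 0.15 and Sox2 at -0.23 ± 0.094 (SE). Runner 1 lay 0.26 and 0.33 above the other runners in these 2 lists, while control 1 lay -0.0059 and -0.027 from the other controls.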

How the data were processed

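Total RNA of powdered inner ear tissue was labelled with the WT PLUS kit, per the labels' protocols. The deposited values are log2 expression per transcript cluster. RMA (background correction, quantile normalization, probe summary) and Partek are named, without versions, per the submitters' processing notes. Quantile normalization hides shifts shared by most genes, and RMA understates changes of dim genes, of which 7 members had a mean under 5. Chip and genome build: not given in the sources used here. Precision is limited by there being 5 arrays a group.

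Of 39295 probe sets, 30130 had 1 symbol, 2146 several and 7019 none. For 827 the symbol was updated by Entrez identifier to RefSeq's (GRCm38.p6). Members keep the annotation's symbols. The brightest probe set per gene left 29766 genes, including a second Hist1h4b probe set without an identifier. The test was limma 3.58.1 (R 4.3.3), with lmFit and eBayes on group alone, two-sided and adjusted by Benjamini-Hochberg over all genes, after a test on simulated data. Figures were drawn with matplotlib 3.10.9.

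The members and the 11 gene lists (127 of 143 genes measured) were chosen with earlier results of these data known, so no set test was run and counts are descriptions. Named were any member passing, the 8 with the smallest p, per class the 2 with the smallest p and the brightest, the 2 largest rises, and the 3 genes per list with the smallest p. Other members named with their values were chosen after these were seen. Alternatives included trended and robust moderation, leaving out dim genes, repeated quantile normalization, median centring, the mean of all probe sets, every probe set, shared probe sets as members, a replicate block, a looser threshold and each array left out. Leaving out runner 1 with control 1, and leaving out the testis genes and the pseudogene, were added after the values were seen.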

Additional observations from a re-analysis of the deposited data

Results flagged for a closer look

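In a group of 5, an array was taken as far from the others when its gap to the nearest made up a share of the group's range above the critical value of Dixon's test, which chance gives in about 1 in 20 groups. Of 68 groups examined 6 met this. Runner 1 was high for Hist1h2aj, at 12.82, and for the mean of the neutrophil lineage list, at 9.17. Control 1 was low for Hist1h2ba, at 7.64, and for the mean of the DNA replication list, at 6.50. Runner 2 was low for Hist1h2bb, at 5.88, on the same side as the difference between the groups. Control 2 was high for the mean of the 3 H3 genes, at 5.12.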

How the results depend on the processing

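The median difference of the histone genes was below 0 in all alternatives, from -0.20 to -0.10, as were the class medians. That of H2B was -0.29 without runner 1 and control 1. The count of members passing was 0, and 0 to 1 with 1 array left out, and 3 without runner 1 and control 1. The count at an unadjusted p under 0.05 was 4, and 1 to 14 with 1 array left out. It was 2 with arrays centred on their medians, where 2.83% of all genes were lower and 5.31% higher at that p, 9 with shared probe sets as members, 2 without the testis genes and the pseudogene and 15 without runner 1 and control 1. The count of members whose groups did not overlap was 1, and 1 to 5 with 1 array left out, and 12 without both. With the replicate number as a block 1 member had an unadjusted p under 0.05 (lower, 3.44% of all genes) and 0 passed, with an adjusted p of 0.521 for Hist1h2bb in limma. Deviations of same-numbered arrays had correlations of -0.25, 0.061, 0.28, 0.070 and -0.19. So few values cannot show whether the numbers pair the samples, and the labels name no pairing. The causes of these shifts were not tested. Differences of this size are near the spread between arrays, with a median SD over members of 0.13 in controls and 0.15 in runners.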
